A study of Mus musculus with 2 samples.

Results

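Solute carriers are membrane proteins that move amino acids, sugars, nucleosides, vitamins, metals, inorganic ions and metabolites across the plasma membrane and the membranes of organelles. The genes described here are those whose symbol starts with Slc, other than the Slco genes, that have at least 1 transcript annotated as protein coding and a mean of at least 2 TPM in the gene tables. TPM is each transcript's length-corrected share of all transcripts, on a fixed total, so it can be compared between genes. The rule left out 5 genes (Slc11a1, Slc11a2, Slc40a1, Slc2a1 and Slc7a2), which left 366 of the 371 protein-coding Slc genes eligible. It kept 136 of these, out of 55536 mouse genes in the tables. The members were selected on their measured mean TPM, so their levels are a description and were given no test. The label, transporters expressed in macrophages, held for the cells. At least 3 of the 136 symbols, however, name proteins that are neither transporters nor parts of one. Slc9a3r1 encodes a scaffold that binds an ion exchanger, Slc4a1ap encodes kanadaptin, and Slc7a6os was named after its place opposite Slc7a6. Slc3a2 encodes the heavy chain of amino acid transporters in which the light chain transports.

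RNA was measured in the nuclear fraction (nucleoplasmic in another label) of primary bone-marrow-derived macrophages from C57BL/6J mice, after removal of ribosomal RNA. The cells met Lipid A, the lipopolysaccharide moiety sensed by TLR4, at 100 ng/ml for 12 h, were washed and kept for 12 h without it, and met the same dose again for 120 min. There was 1 group of 2 biological replicates with no untreated cells, so the values show what this fraction held and not what Lipid A changed. Both replicates carry the same donor label, and separate animals or cultures are not stated, so a spread or p-value between them may be technical. Library preparation started from 1 µg of RNA for replicate 1 and 500 ng for replicate 2, and this input cannot be told apart from the replicate. The cells' age and sex were not recorded in the labels. In bulk RNA, fewer cells with a transcript and less of it per cell cannot be told apart.

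In macrophages solute carriers do several known jobs. Carriers at the plasma membrane bring in amino acids, choline, vitamins and nucleosides. Carriers on lysosomes and phagosomes empty them of digested peptides, nucleosides, sugars and heme, and some of these take part in signalling by Toll-like and other pattern receptors. Carriers of the inner mitochondrial membrane exchange phosphate, nucleotides, iron and the acids of the citric acid cycle. Zinc and copper carriers move metals to or away from engulfed microbes.

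The libraries held 28450309 and 16940220 expected counts on genes, that is, counts after reads were shared out between the transcripts they match. The solute carrier genes had 335342 of them in replicate 1, a share of 1.18% (95% Wilson bounds 1.17 and 1.18). In replicate 2 they had 176764, a share of 1.04% (bounds 1.04 and 1.05). These bounds cover counting error only and make no allowance for PCR copies. Short structural RNAs and genes of the mitochondrial genome held 76.0% of the TPM in replicate 1 and 67.8% in replicate 2. The TPM of most other genes was therefore higher in replicate 2, and 115 of the 136 solute carrier genes shared that direction. All 8 macrophage markers were present, with a median of 171 ± 11.0 TPM (SD, n = 2) and summed levels of 2565 and 2696 TPM. The T cell, B cell, neutrophil and fibroblast markers summed to at most 0.33 TPM in either library, with Cd3e, Elane and Ly6g at 0 counts in both. The 4 erythroid markers summed to 0.88 and 1.77 TPM, nearly all from Alas2. The 3 endothelial markers summed to 12.7 and 8.98 TPM, of which the receptor Kdr gave 12.0 and 8.30, while Cdh5 stayed at 0.18 and 0.13. A second transcript table of the same libraries gave higher values for a few of these, 1.00 and 5.57 TPM for the T cell marker Cd3d, 1.45 and 14.4 for Pecam1 and 1.45 and 3.41 for Alas2.

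Most eligible solute carrier genes lay below the minimum in this fraction. Of the 366, 107 had 0 counts in both libraries, where 0 counts allow up to 3, a CPM (count scaled to a fixed library total) of up to 0.105 in replicate 1 and 0.177 in replicate 2. In all 168 genes, those at 0 included, had a mean under 0.1 TPM, and 62 lay between 0.1 and 2 TPM. The 136 that passed came from 38 of the 47 eligible families. Of them, 125 were at 2 TPM or more in each library, 67 had a mean of 10 or more, 34 of 20 or more, 10 of 50 or more and 3 of 100 or more. Their median was 9.67 ± 2.44 TPM (7.95 in replicate 1 and 11.4 in replicate 2). The 8096 genes of any kind with a protein-coding transcript and the same minimum had a median of 9.03 ± 2.44 TPM. The 10 highest solute carrier genes held 44.0% of the group's TPM in replicate 1 and 37.7% in replicate 2. Just inside the minimum lay Slc10a1 (2.01 TPM), Slc20a2 (2.07) and Slc25a13 (2.18), and just outside it Slc26a1 (1.94), Slc2a8 (1.91) and Slc24a5 (1.84).

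**Figure D1:**
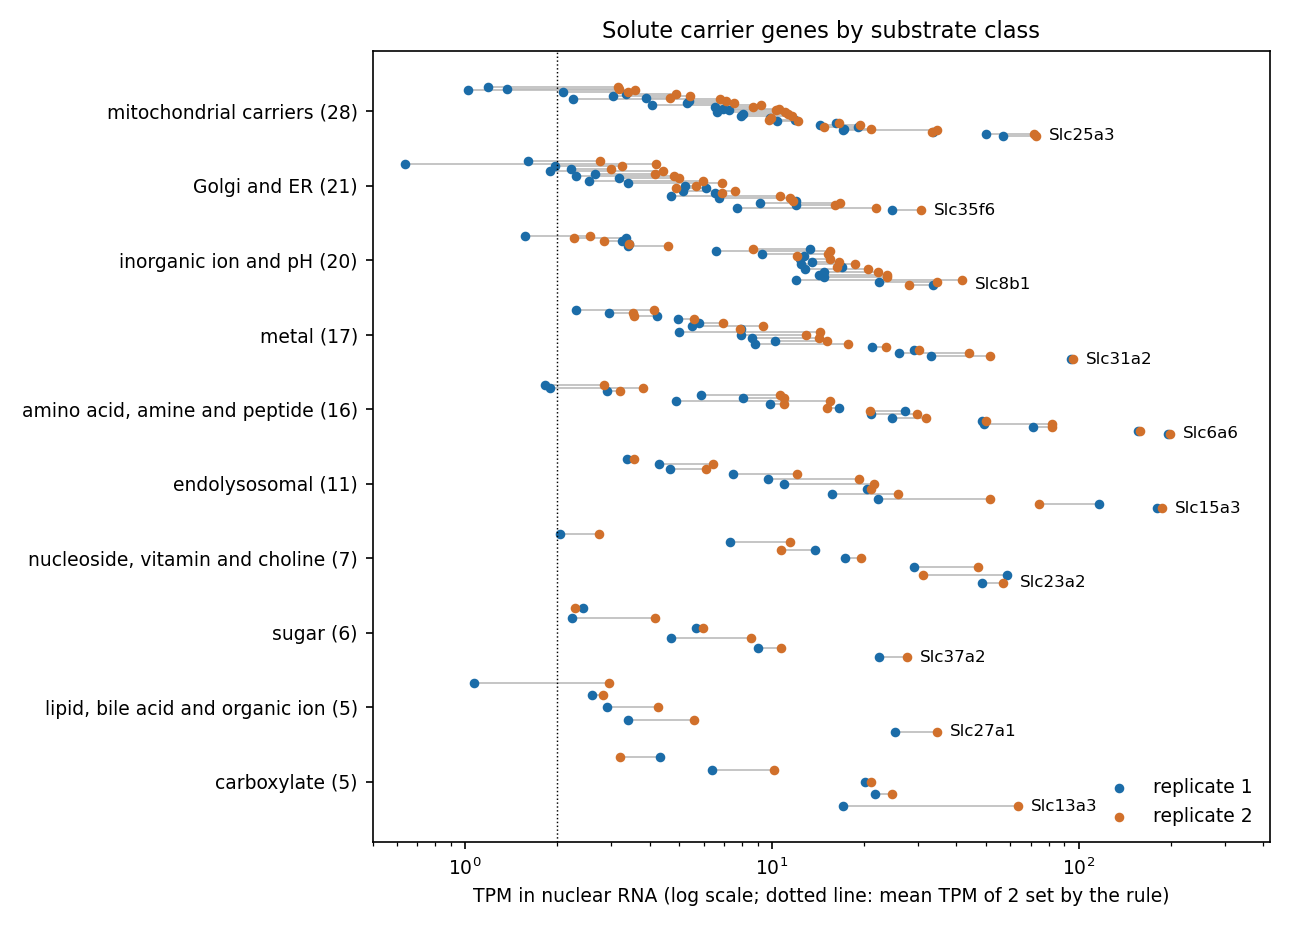
TPM of the 136 solute carrier genes (log axis) in replicate 1 (blue) and replicate 2 (orange), 1 line per gene, by substrate class with the number of genes in brackets; the gene of highest mean in each class is named. Slc6a6, Slc15a3 and Slc3a2 lie above 150 TPM in both libraries, and Slc13a3 and Slc4a7 are among the genes whose points lie far apart.

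The only comparison the design allows is between the libraries. Each gene with a mean of at least 10 counts was tested by an exact two-sided binomial test on its 2 counts, scaled by TMM (a factor that sets most genes equal), with p-values adjusted over all 14698 such genes by the Benjamini-Hochberg method. A call at an adjusted p under 0.05 means a difference beyond counting error between these libraries, not between conditions. All 136 solute carrier genes passed the count minimum. Of these, 66 (48.5%) were lower in replicate 2 against 30% of all tested genes, and 23 (16.9%) were higher against 29.3%. The remaining 47 missed the threshold. The minimum was set on the mean of the same libraries: 11 members were under 2 TPM in replicate 1 and met it only through replicate 2, and 6 of the 23 higher calls (Slc10a1, Slc35g2, Slc25a13, Slc25a14, Slc25a16 and Slc35d1) are among them. No member met it only through replicate 1. Genes of the same type and minimum level lay nearer to the solute carriers, with 43.0% lower and 26.0% higher. The calls given below for each class and list are to be read beside these shares, and no class or list was tested as a set. Ratios below are log2 ratios of TMM-scaled counts, replicate 2 over replicate 1, relative to the median of all tested genes.

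Genes for carriers of amino acids and related compounds, with the heavy chain gene Slc3a2 counted among them, included 2 of the 3 highest levels. Of 65 eligible genes in this class 16 were members, with a median of 18.5 ± 0.407 TPM, and 24 had 0 counts in both libraries. Slc6a6, the taurine transporter (chromosome 6, 91684053 to 91759066, mm10), had the highest level of all solute carrier genes, 196 TPM in replicate 1 against 199 in replicate 2. It had 47741 and 21514 counts, a log2 ratio of -0.57, so the near-equal TPM went with a lower scaled count in replicate 2. Slc43a2, a carrier of large neutral amino acids, had 71.1 and 82.2 TPM, and Slc38a6, a relative of the glutamine transporters, 49.3 and 81.7 TPM. On counts Slc38a6 did not pass the threshold (ratio 0.03, adjusted p = 0.420 by the exact test).

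Other amino acid carriers were moderate. Slc38a1 and Slc38a2, which bring in small neutral amino acids with sodium, had 24.7 and 31.8 TPM, and 16.5 and 15.1 TPM. Slc38a10 had 27.1 and 20.9 TPM and the creatine transporter Slc6a8 20.99 and 29.7 TPM. Slc7a1, the cationic amino acid transporter for arginine and lysine, had 8.08 and 10.99 TPM. Slc1a5, which exchanges glutamine for other neutral amino acids, lay near the minimum with 1.89 and 3.82 TPM. In this class 10 genes were lower in replicate 2, and 2 were higher, Slc7a11 and the non-transporter Slc7a6os.

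Heteromeric amino acid transporters pair a heavy chain, which carries the complex to the plasma membrane, with a light chain, which transports. The heavy chain gene Slc3a2 (chromosome 19, 8706882 to 8723369) had 157 and 158 TPM, the third-highest level among the solute carriers. Of its 6 listed light chains Slc7a8, a carrier of neutral amino acids, was highest with 48.5 and 49.9 TPM. Slc7a7, which exports cationic amino acids, had 9.85 and 10.95 TPM, and Slc7a5, the light chain for leucine and other large neutral amino acids, 1.82 and 2.84 TPM. Slc7a6 was below the minimum with 0.85 and 1.61 TPM, and Slc7a10 had 0 counts. Summed, the light chains had 65.9 and 80.8 TPM, so the heavy chain's TPM was 2.38 times their sum in replicate 1 and 1.96 times in replicate 2. With the TPM of the second transcript table these ratios were 2.32 and 1.88. The other heavy chain, Slc3a1, had 5.09 and 0 counts, and its light chain Slc7a9 had 0.

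Slc7a11, the light chain that takes up cystine for glutathione in exchange for glutamate, went against its partner. Its level was 4.88 TPM in replicate 1 against 15.5 in replicate 2, with 1369 and 1942 counts. Its log2 ratio was 1.08 (adjusted p = 1.01e-101, exact binomial test), whereas Slc3a2 stood at -0.67, Slc7a8 at -0.63 and Slc7a7 at -0.58, each past the threshold. Slc7a5 did not pass (ratio 0.00187).

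**Figure D2:**
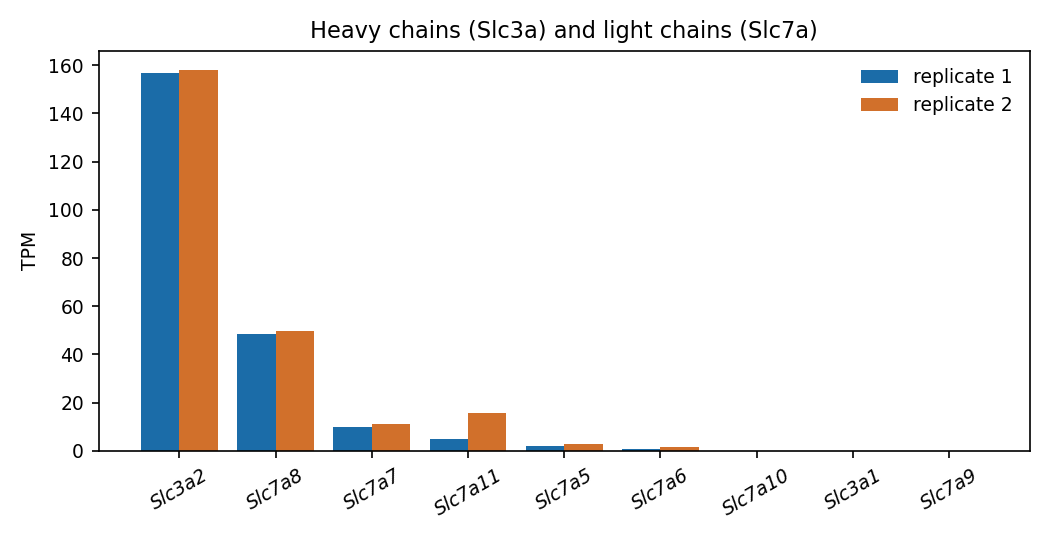
TPM (linear axis from 0) of the heavy chain genes Slc3a2 and Slc3a1 and of their light chains in replicate 1 (blue) and replicate 2 (orange), 1 bar per library. Slc3a2 stands at 157 and 158 TPM, above Slc7a8, and Slc7a11 is the light chain with the widest gap between the libraries.

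In the classes as sorted by hand, endolysosomal carriers had the largest share of members, 11 of 13 eligible genes, with a median of 15.98 ± 7.09 TPM. Slc31a2 and Slc9a9, also placed in these compartments, were counted with metal and ion carriers. The rule's minimum sets such shares, so they were given no test. Slc15a3, which moves histidine and peptides out of endosomes and lysosomes (chromosome 19, 10839727 to 10859362), had 180 and 187 TPM. Its exons overlap those of Tmem132a on the opposite strand over 28.1% of their length, and whether the counts used the strand is not given in the sources used here. Slc2a6, a hexose transporter of lysosomes (chromosome 2, 27021363 to 27027998), reached 116 TPM in replicate 1 against 74.1 in replicate 2. It was among the lowest ratios of all solute carriers, -1.28, with 11624 and 3212 counts, and its TPM was lower in replicate 2 as well.

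Slc15a4, the relative of Slc15a3 that works with the adaptor TASL in signalling by endosomal Toll-like receptors, had 22.2 and 51.5 TPM but 2355 and 904 counts. In replicate 2, 30.7 of its TPM lay on a processed transcript of 166 nt to which 4.11 counts were assigned, so its higher TPM there rests on a few counts. By counts it was lower in replicate 2, with a ratio of -0.80. The gene of TASL, listed as 5430427O19Rik, had 4.49 and 4.92 TPM. Slc29a3, the lysosomal nucleoside exporter, had 20.4 and 20.99 TPM, and Slc48a1, which brings heme out of lysosomes after red cells are digested, 11.0 and 21.5 TPM. Slc48a1 was the only member of this class that was higher in replicate 2 (ratio 0.31), a call that was lost with the second table. Slc38a9, the arginine sensor that activates mTORC1 at the lysosome, had 9.74 and 19.3 TPM without passing on counts (ratio -0.04). Transcripts annotated as retained intron held 54.0 and 59.8% of the TPM of Slc38a9. Of this class 5 genes were lower and 1 higher, and with library size in place of TMM 4 and 4.

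Carriers of nucleosides, vitamins and choline numbered 7 of 23 eligible genes, with a median of 18.5 ± 1.53 TPM. Slc23a2, which takes up vitamin C with sodium, had 48.5 and 56.9 TPM. Slc44a1, a choline transporter, had 29.1 and 47.1 TPM and no difference past the threshold on counts. Slc28a2, which concentrates purine nucleosides with sodium, reached 58.5 TPM in replicate 1 against 31.2 in replicate 2, and its counts of 8072 and 1907 gave a ratio of -1.50. Of its 31-base words 46.3% also occur in the neighbouring gene model Gm14085, so its level is uncertain. Slc43a3, a purine nucleobase carrier, had 13.8 and 10.8 TPM (ratio -1.02). In this class 4 genes were lower in replicate 2 and 0 higher, and with library size in place of TMM 4 and 1. Slc19a1, the reduced folate carrier, was below the minimum with 0.43 and 0.66 TPM.

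Sugar carriers were few, 6 of 31 eligible genes, with a median of 6.22 ± 1.48 TPM, after Slc2a1 was set aside by the rule and Slc2a6 counted as lysosomal. Slc37a2, a sugar-phosphate exchanger known from macrophages, led with 22.4 and 27.6 TPM. Slc37a3 had 9.00 and 10.7 TPM, and Slc50a1, a glucose transporter of the SWEET family, 4.68 and 8.53 TPM. Slc2a9, a urate transporter, had 2.42 and 2.29 TPM. Of the 6, 4 were lower in replicate 2 and 0 higher, and with library size in place of TMM 3 and 1.

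Among 19 eligible carboxylate carriers 5 were members, and their median was 19.1 ± 2.82 TPM. Slc13a3, which takes up succinate and other dicarboxylates with sodium (chromosome 2, 165405028 to 165473230), had a level of 17.1 TPM in replicate 1 against 63.6 in replicate 2. Its 2309 and 3716 counts gave the highest ratio of all solute carriers, 1.27 (adjusted p = 3.46e-249, exact binomial test), at the 93.9th percentile of all tested genes. The gap ran through its main coding transcript, with 12.6 and 47.4 TPM, and the second table gave the gene 10.001 and 49.3 TPM. The other 4 were lower in replicate 2 on counts. Slc16a10, counted in this class although it carries aromatic amino acids, had 21.6 and 24.7 TPM, and Slc16a6 20.1 and 21.1 TPM. The class count and median include Slc16a10. Slc16a3, the lactate exporter of glycolytic cells, had 4.32 and 3.21 TPM. Slc16a1, the general lactate carrier, was below the minimum with 0.50 and 1.39 TPM, and Bsg and Emb, whose products escort these carriers to the membrane, had 33.8 ± 4.12 and 9.63 ± 5.43 TPM.

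Mitochondrial carriers were the most numerous class, 28 of 47 eligible genes, with a median of 8.61 ± 2.15 TPM. Slc25a3, which brings phosphate into the matrix, had 56.6 and 72.8 TPM. The ADP and ATP exchangers Slc25a5 and Slc25a4 had 33.5 ± 0.297 and 8.77 ± 2.15 TPM. Of the words of Slc25a5, 49.4% occur in other genes, mainly the processed pseudogene Gm5560. Slc25a1, the citrate exporter, had 8.06 and 11.3 TPM. In this class 12 genes were lower in replicate 2 and 6 higher, among them Slc25a36, a carrier of pyrimidine nucleotides (17.0 and 34.7 TPM), and Slc25a40, a carrier linked to mitochondrial glutathione (2.25 and 6.77 TPM).

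Slc25a37 encodes mitoferrin-1, which brings iron into mitochondria for heme and iron-sulfur clusters (chromosome 14, 69241848 to 69285112, minus strand). It had 50.04 and 71.5 TPM, and its paralog Slc25a28 had 16.2 and 16.6 TPM. Retained-intron transcripts held 40.2 and 52.6% of the TPM of Slc25a28, and protein-coding ones a mean of 4.69%. Most RNA of Slc25a37 was assigned to a transcript annotated with a retained intron, 10416 of 12057 counts in replicate 1 and 6587 of 7827 in replicate 2. Its coding transcript had 821 and 1126 counts. The retained intron, chr14:69247638-69249393, is 1756 nt long and joins exons that the coding transcript splices together. Both ends of that intron follow from the mm10 sequence, 30 bases on each side, read along the gene, with exon bases in lower case and intron bases in capitals. The intron starts with GT and ends with AG, the usual letters of a spliced intron.
Slc25a37 5′ end of the intron: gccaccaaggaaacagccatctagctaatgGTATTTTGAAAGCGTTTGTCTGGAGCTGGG
Slc25a37 3′ end of the intron: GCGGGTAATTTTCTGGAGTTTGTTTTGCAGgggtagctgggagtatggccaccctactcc

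Carriers of zinc, copper and other metals numbered 17 of 29 eligible genes, with a median of 11.1 ± 4.45 TPM, after the iron carriers were set aside by the rule. Slc31a2, a copper transporter of late endosomes and lysosomes, had 94.2 and 95.8 TPM, and Slc31a1, the copper importer, 21.2 and 23.6 TPM. On counts both were lower in replicate 2, with ratios of -0.61 and -0.48. Among zinc carriers of the Slc39 family Slc39a1 had 33.0 and 51.4 TPM and Slc39a13 25.9 and 43.8 TPM, neither past the threshold. A processed transcript led for Slc39a13 in both libraries, and its protein-coding transcripts held a mean of 44.9% of its TPM. Slc39a7, which releases zinc from the endoplasmic reticulum, had 29.0 and 30.3 TPM, but 76.8% of its words also occur in the overlapping gene model Gm20427. Slc39a14, which imports zinc and iron not bound to transferrin, had 4.98 and 14.4 TPM and was higher in replicate 2 (ratio 0.46). The zinc exporter of the plasma membrane, Slc30a1, had 7.96 and 7.89 TPM and a ratio of -0.65. Slc30a4, which loads zinc into vesicles, was below the minimum with 0.29 and 1.24 TPM. Of this class 8 genes were lower and 2 higher.

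Of 59 eligible carriers of inorganic ions and acid equivalents 20 were members, with a median of 14.2 ± 2.34 TPM. Slc8b1, the mitochondrial sodium and calcium exchanger, had 33.6 and 28.0 TPM and a ratio of -1.22. Slc4a7, a sodium and bicarbonate cotransporter known for its part in acidifying phagosomes (chromosome 14, 14702279 to 14799940), reached 12.0 TPM in replicate 1 against 41.8 in replicate 2. Its counts of 2414 and 3340 gave a ratio of 1.05. The orphan relative Slc12a9 had the lowest ratio of all solute carriers, -1.56, with 13.3 and 8.72 TPM and 1873 and 426 counts. Slc9a9, a proton exchanger of endosomes, had 14.8 and 23.8 TPM. The phosphate carrier Slc20a1 had 12.5 and 18.7 TPM, and the calcium exchanger Slc8a1 12.7 and 12.1 TPM. In this class 11 genes were lower and 2 higher, Slc4a7 and the non-transporter Slc4a1ap.

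Transporters of the Golgi and endoplasmic reticulum, which bring nucleotide sugars, sulfate donor and acetyl-CoA to the enzymes that modify proteins and lipids, made up 21 of 28 eligible genes. Their median was 5.34 ± 0.905 TPM. Slc35f6, placed in this class by hand without a check of its protein's compartment, had 24.7 and 30.7 TPM. Slc35b1, which exchanges ATP and ADP across the endoplasmic reticulum, had 12.0 and 16.1 TPM. Slc35a3, a carrier of UDP-N-acetylglucosamine, had 7.73 and 21.9 TPM and a ratio of 0.84. Slc35b2, which brings the sulfate donor PAPS to the Golgi, had 12.0 and 11.8 TPM and a ratio of -1.02. In this class 8 genes were higher in replicate 2 and 6 lower, and the second table gave 5 higher and 10 lower. Slc35g2, one of the 8, had 43 and 53 counts and 0.64 and 4.19 TPM, and a 502-nt processed transcript with 17.7 counts held most of its TPM in replicate 2.

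Lipid, bile acid and organic ion carriers, many of them known from liver and kidney, had 5 members among 52 eligible genes. That was the smallest share of the classes as sorted by hand, and 33 of the 52 were at 0 counts in both libraries. The fatty acid transport protein Slc27a1 led with 25.3 and 34.6 TPM, followed by Slc10a7 with 3.41 and 5.58 TPM and Slc27a4, another fatty acid transport protein, with 2.91 and 4.25 TPM. Slc10a1, the bile acid importer of hepatocytes, lay just inside the minimum with 1.07 and 2.95 TPM and 69 and 86 counts. It was higher in replicate 2 (ratio 0.89), the library through which it met the minimum. Slc27a1 and Slc10a3 were lower.

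**Figure D3:**
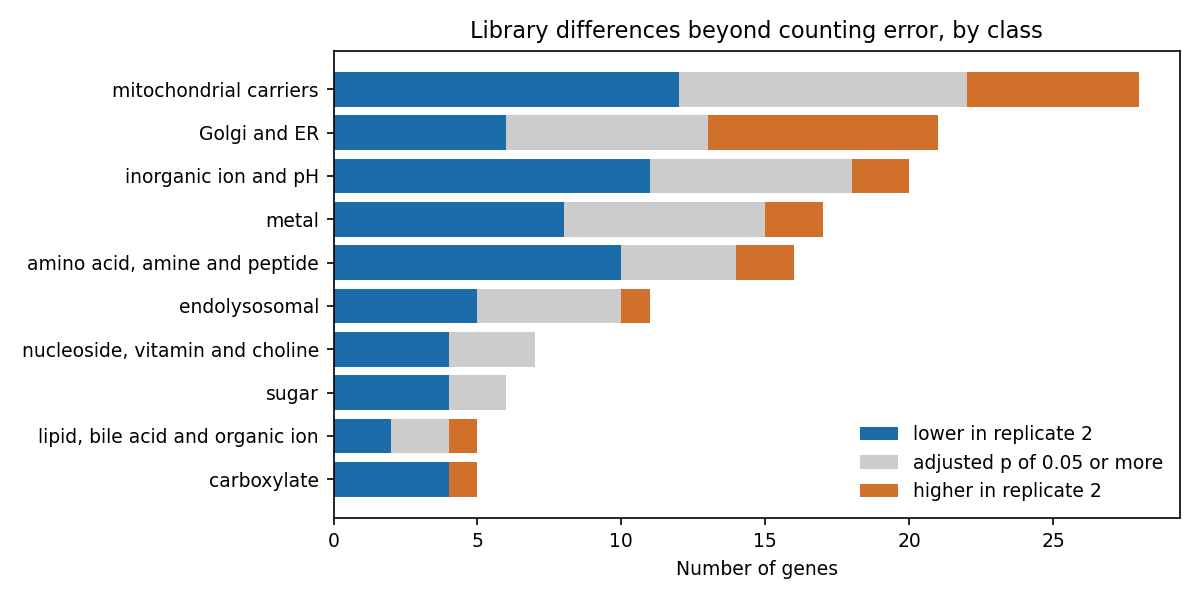
Number of solute carrier genes of each substrate class that were lower in replicate 2 (blue), had an adjusted p of 0.05 or more (grey) or were higher in replicate 2 (orange) in the exact binomial test; each bar's full length is the class's number of genes. Golgi and endoplasmic reticulum transporters have 8 higher and 6 lower calls, which the second table turns to 5 and 10. Nucleoside and sugar carriers have 0 higher calls, and 1 each with library size in place of TMM. Endolysosomal carriers have 5 lower and 1 higher, which become 4 and 4 with library size and 10 and 0 with the second table. Mitochondrial carriers have 12 lower and 6 higher, which become 7 and 8 with library size and 19 and 6 with the second table. Ion carriers go from 11 and 2 to 7 and 6 with library size, metal carriers from 8 and 2 to 8 and 6. Lipid carriers go from 2 and 1 to 0 and 2. Over all tested genes 30% were lower and 29.3% higher.

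Over the whole group the median ratio was -0.18, against -0.12 for the 8096 genes of the same type and level. Of the solute carriers 93.4% lay within 2-fold of the median of all genes, against 93.6% of those genes and 82.7% of all tested genes. By TPM the picture differed: 46 of the 66 genes called lower on scaled counts had a higher TPM in replicate 2, and the median ratio on TPM + 1, relative to its own median over all genes, was 0.00817. On library size in place of TMM, 48 genes were lower and 41 higher, so lower calls made up 53.9% of the calls in place of 74.2%. Over all tested genes that share fell too, from 50.6% to 36.2%, with 21.9% of the genes lower and 38.6% higher on library size. The second table gave 97 lower and 19 higher solute carriers, so 83.6% of their calls were lower, against 49.1% of the calls over all genes. Of its 23709 tested genes, 30.6% were lower and 31.7% higher.

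Ratios moved with GC content, taken from each gene's transcript with the most counts. Of the 29 solute carriers under 45% GC, 9 were lower and 11 higher in replicate 2, and of the 35 from 45 to 50% these were 14 and 8. Of the 35 from 50 to 55%, 24 were lower and 2 higher, and of the 37 at 55% or more, 19 and 2. Of all tested genes, 576 were lower and 2519 higher among 4518 under 45%, with a median ratio of 0.40 against 0.03 for the solute carriers there. At 55% or more 1474 were lower and 183 higher among 2784, with a median ratio of -0.44 against -0.27. Genes of the solute carriers' type and level had a median ratio of 0.19 under 45% (455 lower and 1232 higher among 2306). At 55% or more theirs was -0.48 (1154 lower and 84 higher among 1704). The median GC content was 50.7% for solute carriers and 48.6% for all tested genes. With scaling set within 20 bins of GC content, 57 solute carriers were lower and 35 higher, so 62.0% of their calls were lower, against 52.8% over all tested genes (27.7% lower and 24.8% higher). Under it 48 of the 66 lower calls were kept and 3 turned to higher (Slc25a10, Slc27a1 and Slc6a8), and 17 of the 23 higher calls were kept and 1 turned to lower (Slc35a5). The call of the lactate exporter Slc16a3 was lost. Slc13a3, at 56.2% GC, was 1 of the 2 higher calls among the 37 at 55% or more, and its call was kept. Slc7a11 and Slc4a7 have a low GC content, 40.7 and 39.0%, and their higher calls were kept too. All 8 macrophage markers were lower in replicate 2, with a median ratio of -0.73, and their part in the solute carriers' ratios was not tested.

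**Figure D4:**
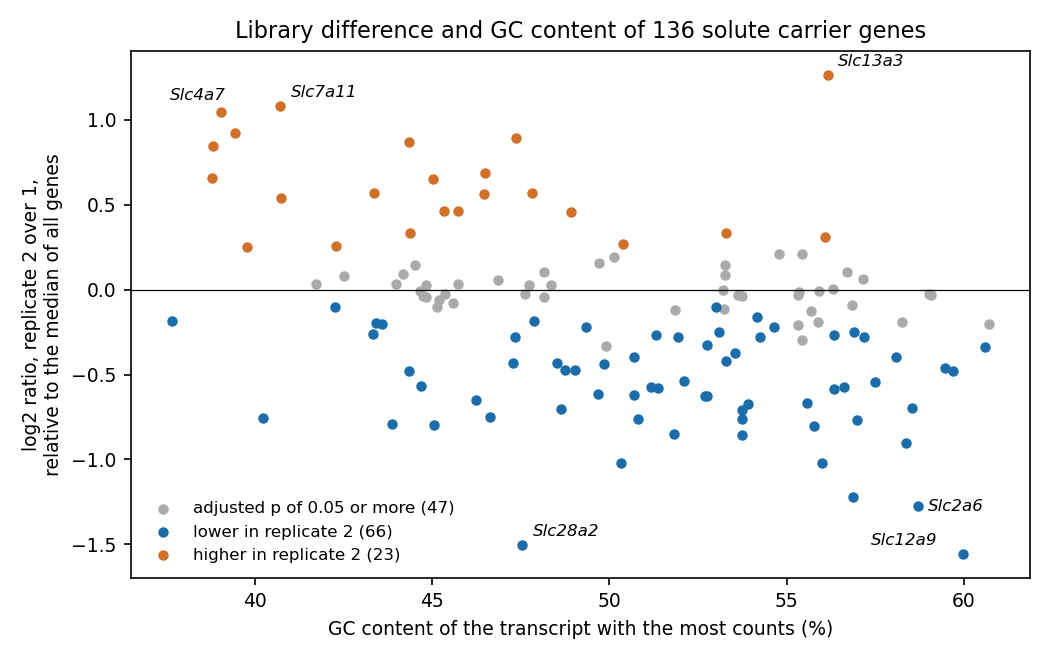
Log2 ratio of TMM-scaled counts, replicate 2 over replicate 1, relative to the median of all tested genes, against the GC content (%) of each of the 136 solute carrier genes; points are coloured by the call of the exact binomial test. Higher calls lie mostly under 50% GC, with Slc13a3 at 56.2% GC the highest point.

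Nuclear RNA includes transcripts that still hold introns, and the annotation types some of them as retained intron. How much of a gene's TPM falls on such transcripts was not named by the rule, but the rule's gene TPM includes it. Of the 88 solute carriers with such a transcript, 9 would have a mean under 2 TPM without it, among them Slc27a1, Slc1a5, Slc25a40 and Slc52a2. Over the 88 it had a median of 23.1% ± 3.26 (n = 2), 20.8% in replicate 1 and 25.4% in replicate 2. The 5295 genes of the same type and level with such a transcript had 27.1% ± 4.38. Above 50% in both libraries were 7 of the 88 (7.95%), against 12.2% of those genes. Replicate 2 had the higher value in 56 of the 88 genes (63.6%), against 71.4% of the genes of that type and level and 66.8% of all tested genes with such a transcript. Among the 16 ion carriers with such a transcript the median was 31.5% ± 5.95, and among the 14 amino acid carriers 12.5% ± 1.096. Slc3a2 was low with 1.67 and 4.24%, as were Slc43a2 with 2.25 and 2.92% and Slc7a8 with 6.17 and 8.79%. How the tables split reads between overlapping transcripts sets these shares.

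Slc27a1 had the highest share, 100% in both libraries, because its coding transcripts were given 0 counts. Of its 3 retained-intron transcripts with counts, 2 end 593 and 594 bases past the 3′ end of the main coding transcript. Slc1a5 followed with 76.8 and 90.3%, although this rests on 227 and 163 counts, and Slc25a37 had 74.1 and 76.9%. Slc35b4, a nucleotide sugar carrier, had 62.4 and 64.6%, Slc25a40 53.8 and 72.8%, and the riboflavin transporter Slc52a2 68.8 and 49.3%. The second table put Slc25a37 at 57.9%, Slc1a5 at 80.4% and Slc25a40 at 82.4%. Of the genes with large library differences, Slc4a7 had 54.1 and 62.9%, Slc7a11 51.8 and 48.3% and Slc13a3 24.4 and 25.4%. The 5′ ends of 2 retained introns are shown for comparison with that of Slc25a37, in the same lettering. The transcript that holds the intron of Slc1a5 had 70.4 and 64.1% of the gene's TPM, whereas that of Slc25a40 had 18.7 and 23.9%, the rest of its share lying on other retained-intron transcripts. The intron of Slc1a5, chr7:16795953-16796023 on the plus strand, is 71 nt long with 66.2% GC, and that of Slc25a40, chr5:8440789-8442446 on the plus strand, 1658 nt with 39.0% GC. The intron of Slc25a37 has 46.9% GC.
Slc1a5 5′ end of the intron: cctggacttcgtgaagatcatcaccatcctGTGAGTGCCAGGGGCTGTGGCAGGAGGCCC
Slc25a40 5′ end of the intron: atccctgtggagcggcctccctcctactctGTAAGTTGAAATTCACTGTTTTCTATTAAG

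**Figure D5:**
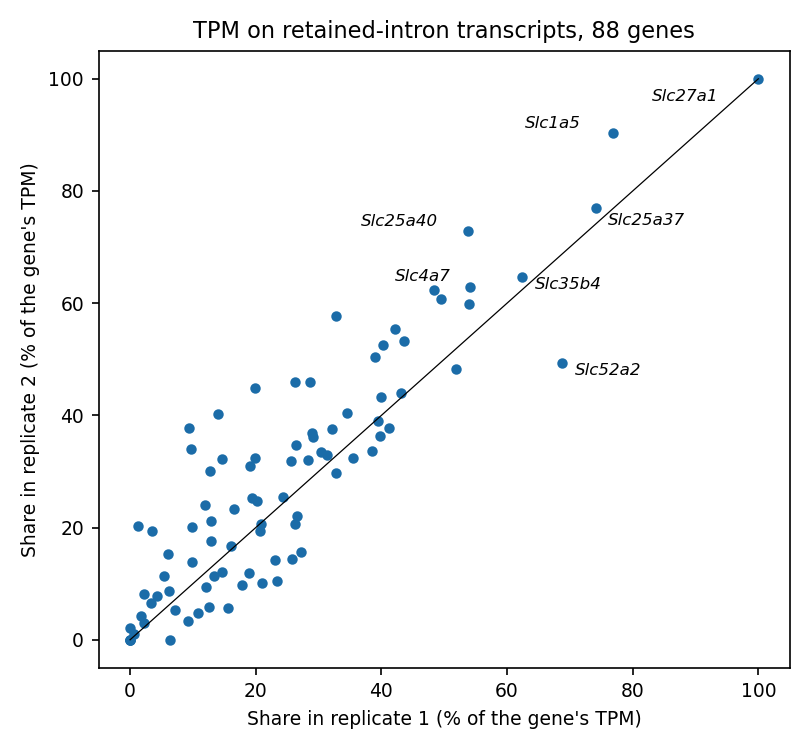
Share of each gene's TPM (%) on transcripts annotated as retained intron, replicate 1 against replicate 2, for the 88 solute carrier genes that have such a transcript; the line marks equal shares. Slc27a1 lies at 100% in both, Slc1a5 and Slc25a37 lie above 70% in both, and 56 points (63.6%, against 66.8% of all tested genes with such a transcript) lie above the line.

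The transcript of highest TPM was a protein-coding one in both libraries for 109 of the 136 genes (80.1%, against 77.9% of genes of the same type and level). It was a retained-intron transcript in both for 9 (6.62% against 6.14%). The same transcript led in both libraries for 110 genes.

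The second transcript table, summed per gene, put 125 of the 136 genes at 2 TPM or more and none below 1.22 TPM. The rank correlation of the mean levels in both tables across the 136 genes was 0.953 (Spearman), which describes 2 estimates from the same libraries. The second table's level was lower for most genes, with a median of 0.692 times the gene table's, against 0.733 for genes of the same type and level, and it was higher for 21. The tables differed most for Slc25a28 (16.4 against 7.80 TPM), Slc15a4 (36.8 against 18.6), Slc25a5 (33.5 against 17.0), Slc25a3 (64.7 against 33.6), Slc25a22, a glutamate carrier (16.9 against 8.50), and Slc31a1 (22.4 against 11.5). Slc38a6 differed the other way, with 65.5 against 113 TPM. Of its words 31.3% occur in other genes.

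In all, 7 members share more than 20% of their 31-base words with other genes. Beside Slc39a7, Slc25a5, Slc28a2 and Slc38a6 they include Slc39a1 (27.7%, mainly its pseudogene Slc39a1-ps) and Slc35e3 (21.6%). Without these 7, 62 genes were lower and 23 higher. Exons of 42 members overlap those of another gene, and for 10 the overlap exceeds 10% of their length.

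Transporters outside the Slc symbols and regulators of solute carrier genes are given for context. Of 33 listed carriers with other names 32 were found and 28 had a mean of 2 TPM or more. The lysosomal proteins Cln3 (73.2 ± 13.7 TPM), Mfsd12 (63.1 ± 21.1), Npc1, the cholesterol exporter (49.8 ± 5.72), and Mfsd1 (35.9 ± 1.58) led, followed by the mitochondrial carrier Ucp2 (26.2 ± 3.26) and Mfsd14b (25.5 ± 7.60). Of the 30 tested, 13 were lower and 9 higher in replicate 2, beside 30% lower and 29.3% higher over all tested genes. Genes of the solute carriers' type and level had 43.0% lower and 26.0% higher. Among 11 regulators Nfe2l2, which encodes NRF2, an activator of Slc7a11 in the response to oxidants, had 75.2 and 95.2 TPM, and Atf4, an activator of amino acid carrier genes when amino acids are short, 43.5 and 45.9 TPM. Both were lower in replicate 2 on counts (ratios -0.42 and -0.55), as was the listed regulator Bach1 (ratio -0.84). The part of these regulators in the ratios of solute carriers was not tested. The lysosomal regulators Mitf and Tfe3 had 40.6 ± 16.9 and 22.9 ± 4.45 TPM. Of the 10 regulators tested, 5 were lower, 3 higher and 2 did not pass, to be read beside the same shares.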

How the data were processed

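For each library the authors deposited 3 tables. Per the file headers, those of genes and of transcripts gave deposited expected counts and TPM, with columns as RSEM writes them, and another per transcript (the second table) gave estimated counts and TPM with columns as kallisto writes them. The deposited bounds of TPM credibility intervals were read as scores and support no result. The authors' notes name mm10 and GENCODE M21. Programs, versions, aligner and strand use are not given in the sources used here.

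Expected counts were rounded, scaled by TMM (edgeR 4.0.16 in R 4.3.3; DESeq2 1.42.0 size factors as an alternative) and tested in Python 3.11.15 with scipy 1.17.1, pandas 2.3.3, numpy 2.4.6 and matplotlib 3.10.9, over genes averaging at least 10 counts; log2 ratios used a prior count of 0.5. The test was checked on simulated data. Substrate classes (10) and lists were written by hand. Members and lists were chosen with earlier results of these data known. Genes were named by fixed rules: the 3 highest of each class, the 6 largest and 6 smallest ratios past the threshold, the 6 highest retained-intron shares, the nearest 3 on each side of the minimum, the 6 largest differences between tables, listed macrophage and heteromer genes, members with shared sequence, and the 6 highest other carriers. One gene that these rules name is not reported here. Members named outside these rules, such as Slc38a1, Slc38a10, Slc7a1 and Slc25a36, were picked after their values were seen. Sequences and coordinates are from the mm10 reference with GENCODE M21.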

Additional observations from a re-analysis of the deposited data

How the results depend on the processing

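No paired analysis was possible because the design has 1 group. Of 41 values over all settings, 33 were labelled as kept within a set tolerance, 7 moved and 1 reversed. The tolerance for counts was wide. Values labelled as kept include 97 genes lower in replicate 2 with the second table and 48 with library size, against 66. They also include 172 genes at the minimum with TPM rescaled without short and mitochondrial RNAs, against 136. With library size in place of TMM 41 solute carriers were higher in replicate 2, and with scaling in bins of GC content 35, against 23. The median log2 ratio of -0.18 became -0.46 with the second table, -0.10 (-0.0950) with GC bins and 0.01 (0.00817) on the TPM scale, where it changed sign. TPM rescaled without short and mitochondrial RNAs put the median level at 24.1 TPM. The median retained-intron share was 29.5% with the second table and 31.6% with every transcript not typed protein coding. The cause of these shifts was not tested. With either replicate left out, 126 to 145 genes met the minimum, the median level was 8.93 to 10.8 TPM and the median retained-intron share 20.8 to 25.4%. The comparison between libraries needs both. With DESeq2 size factors all 66 lower and 23 higher calls were kept, and the second table kept 65 and 17. Leaving out members with shared sequence, the TPM-scale ratio and leaving out transcripts under 300 nt were chosen after seeing the data. With 2 libraries, a difference between them has no replicate check.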
